A study of Homo sapiens with 22 samples.

Results

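The collagen chain genes of RWPE1 cells were taken as every entry whose symbol reads COL, a number, A and a number, with COL17A1 left out. RWPE1 is an immortalized line of human prostate epithelium. The rule found 49 of the 56299 entries in the deposited table. These carried 43 gene symbols, of which 42 had an entry of their own and 36 were detected widely enough to be tested. The other symbol, COL11A2, had 7 entries.

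The poly-A RNA-seq libraries fell into 4 groups. The Vector group held 6 libraries of cells with an empty vector, an altered pTRIPZ. The NKX3.1 group held 6 libraries of cells overexpressing wild type NKX3.1, a homeobox transcription factor of the prostate. In the R52C group, 6 libraries were labelled as overexpressing the R52C form of that factor. The T164A group held 4 libraries labelled with its T164A form. All titles name paraquat, a herbicide that generates reactive oxygen species, and no untreated library was analysed here. For 3 of the 4 T164A libraries the treatment stands in the title alone. The labels do not say whether a group was a clone or a pool, nor whether libraries came from separate cultures. For that reason a p-value here speaks only to the scatter among libraries, part or all of which may be technical.

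Values are the authors' normalized levels on the log2 scale, and the number of reads behind them is unknown. Noise filled the table below a level of about 3, so 3 was used as the floor of detection. Summed over all entries on the linear scale, the libraries held 17256903 to 21506481 units. Of 12 basal epithelial markers, all were above the floor on average in Vector, NKX3.1 and T164A. In the libraries labelled R52C, KRT15, KRT17 and TP63 were among those under it on average, and KRT5 was 0.55 to 6.95 against 16.73 to 17.09 in Vector. Of 12 prostate luminal markers, 5 (KLK3, KLK2, KLK4, TMPRSS2 and TRPM8) averaged under the floor in the libraries labelled T164A and none elsewhere. Every statement on R52C or T164A below is about libraries so labelled.

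Collagens are secreted proteins in which chains wind into a helical trimer, so a chain is secreted only together with the partners that its type requires. Type IV collagen forms the network of basement membranes, on which prostate basal cells sit. Type VII forms the anchoring fibrils beneath it, type VI forms beaded filaments at the border with the stroma, and fibrillar collagens such as types I, III and V are mostly products of fibroblasts. Other members are fibril-associated, transmembrane or short-chain collagens. In bulk RNA, fewer cells of a type and less RNA per cell cannot be told apart.

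The promoter windows of 5 members are shown because the results turn on these genes: the type IV chains are transcribed in head-to-head pairs, and COL7A1 and COL6A2 were low and high in different groups. Each window runs from 250 bases before to 50 bases after a RefSeq transcription start (GRCh38.p14, transcript strand, 5′ to 3′). Capitals mark promoter motifs on either strand. The GC box searched is GGGCGG. The other sites searched are the CCAAT box, spelled as its name, and the TATA box, spelled TATAAA. The windows are chr13:110307034-110307333 on the plus strand for COL4A2, chrX:108439588-108439887 plus for COL4A5, chrX:108439409-108439708 minus for COL4A6, chr3:48595280-48595579 minus for COL7A1 and chr21:46097862-46098161 plus for COL6A2.
COL4A2: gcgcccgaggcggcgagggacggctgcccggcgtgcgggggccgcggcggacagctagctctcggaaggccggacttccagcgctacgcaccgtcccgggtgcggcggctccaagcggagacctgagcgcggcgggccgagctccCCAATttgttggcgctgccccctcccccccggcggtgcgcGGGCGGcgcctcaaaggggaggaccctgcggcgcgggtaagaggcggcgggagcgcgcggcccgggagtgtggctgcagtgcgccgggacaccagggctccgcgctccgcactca
COL4A5: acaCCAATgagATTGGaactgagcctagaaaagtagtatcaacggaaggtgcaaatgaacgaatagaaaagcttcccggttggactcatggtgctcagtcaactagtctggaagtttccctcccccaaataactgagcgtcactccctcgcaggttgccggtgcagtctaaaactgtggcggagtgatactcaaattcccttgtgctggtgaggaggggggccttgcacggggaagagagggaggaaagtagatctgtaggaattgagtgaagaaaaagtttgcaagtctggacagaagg
COL4A6: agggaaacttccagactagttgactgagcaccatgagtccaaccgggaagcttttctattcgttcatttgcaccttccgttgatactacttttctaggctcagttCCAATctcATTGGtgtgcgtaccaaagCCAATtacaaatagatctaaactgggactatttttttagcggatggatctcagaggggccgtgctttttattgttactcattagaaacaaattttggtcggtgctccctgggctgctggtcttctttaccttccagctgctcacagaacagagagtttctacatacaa
COL7A1: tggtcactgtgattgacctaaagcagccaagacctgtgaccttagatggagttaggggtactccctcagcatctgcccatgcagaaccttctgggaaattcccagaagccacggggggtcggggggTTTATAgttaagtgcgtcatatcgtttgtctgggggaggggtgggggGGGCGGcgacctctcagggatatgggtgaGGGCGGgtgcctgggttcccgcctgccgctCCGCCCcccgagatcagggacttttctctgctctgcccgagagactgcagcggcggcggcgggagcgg
COL6A2: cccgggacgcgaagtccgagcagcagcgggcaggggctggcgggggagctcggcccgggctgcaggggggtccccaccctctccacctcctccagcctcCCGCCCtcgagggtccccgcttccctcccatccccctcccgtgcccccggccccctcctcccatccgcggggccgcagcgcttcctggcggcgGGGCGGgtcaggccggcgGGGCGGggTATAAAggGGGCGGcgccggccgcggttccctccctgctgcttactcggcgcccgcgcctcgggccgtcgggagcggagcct

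The starts of COL4A1 and COL4A2 lie 127 bases apart on opposite strands of chromosome 13, so the COL4A2 window holds both. The nearest starts of COL4A6 and COL4A5 are 380 bases apart on chromosome X, their 2 windows overlap, and the 2 CCAAT boxes in the COL4A5 window are also in that of COL4A6, which holds 3. A second COL4A6 start lies 1416 bases from that of COL4A5. Those of COL4A4 and COL4A3 are 419 bases apart on chromosome 2. The COL7A1 window held 3 GC boxes and 1 TATA box, and the COL6A2 window 4 GC boxes and 1 TATA box. RefSeq windows were found for 31 of the 43 members, 43 windows in all. Of these, 24 held a GC box, against 45% of all 35116 windows, and 13 held a CCAAT box, against 34.6%. A TATA box was in 7, against 11.5%. The letters TAAGTA, a known NKX3.1 site, were in 2, those of COL12A1 and of the second COL4A6 start, against 5.84%. Each motif was searched on both strands and counted apart from the others, and a match describes the letters only.

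The Vector cells expressed a collagen set led by type VII and type IV. Per kilobase of transcript, the highest log2 levels were those of COL7A1 (10.78), COL4A5 (9.75), COL16A1 (8.84), COL5A1 (8.16) and COL1A1 (7.92). COL7A1 and COL4A5 kept the highest and second highest place per kilobase in NKX3.1, at 10.36 and 9.44, and in T164A, at 10.29 and 9.12. In R52C the order was COL6A1 at 9.88, COL4A5 at 8.96 and COL6A2 at 8.85, with COL7A1 at 6.27. Above the floor in all libraries of a group were 23 of the 43 symbols for Vector, 25 for NKX3.1, 23 for R52C and 33 for T164A. Those under the floor in every library numbered 13 for Vector and for NKX3.1, 17 for R52C and 7 for T164A.

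**Figure D1:**
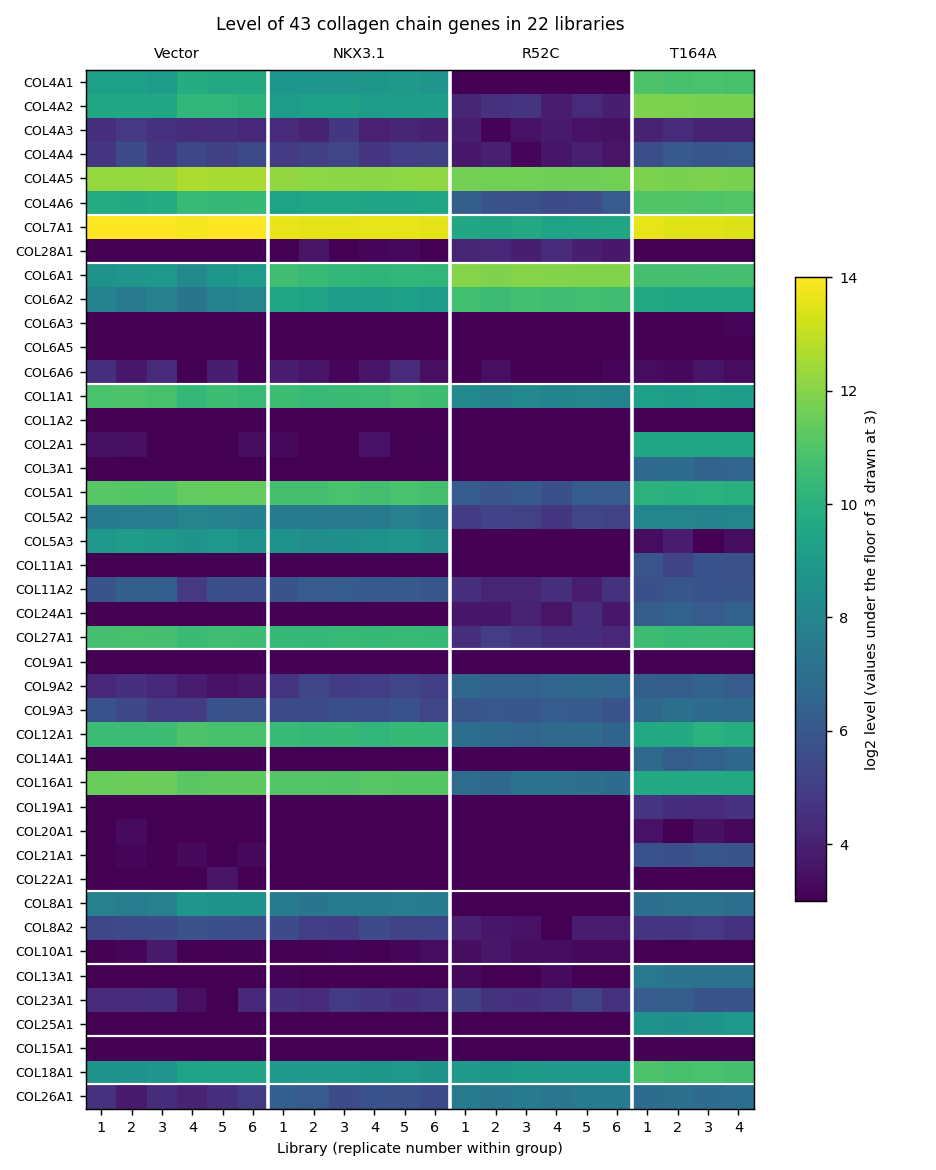
Log2 level (colour, from the floor of 3 upward) of the 43 collagen symbols in rows, ordered by class from type IV at the top, in the 22 libraries in columns, for COL11A2 from its 1 entry above the floor. COL4A1 and COL8A1 were under the floor in R52C and in no other group, and COL2A1, COL25A1, COL13A1 and COL3A1 were bright in T164A alone of the groups.

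Summed over all members, the collagen share of the linear signal was 1720 to 1910 parts per 1000000 in Vector, with a median of 1790. It was 1480 to 1610 in NKX3.1 (median 1500), 621 to 676 in R52C (median 628) and 1780 to 1900 in T164A (median 1830). The R52C libraries were the lowest, NKX3.1 lay below Vector without overlap, and T164A overlapped Vector. The makeup differed more than the total. Type VI made up 21.3 to 39.1 of these parts with the empty vector and 88 to 119 with NKX3.1. Its share was 305 to 336 in R52C and 131 to 135 in T164A. Type VII with type XXVIII made up 697 to 841 in Vector and 38.4 to 47.4 in R52C, and the fibrillar class 282 to 336 and 21.8 to 27.3. These shares are a description, with no test.

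**Figure D2:**
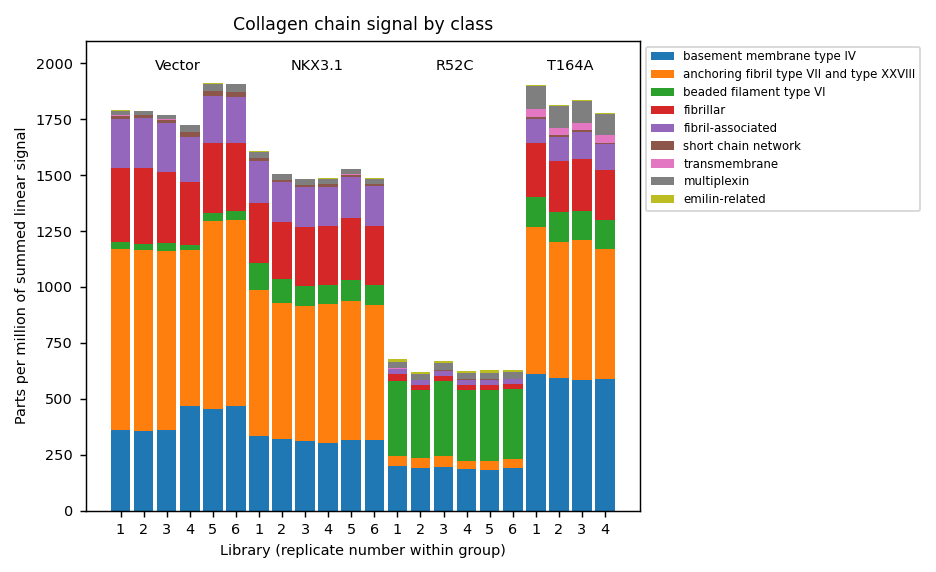
Share of the summed linear signal (parts per 1000000) taken by each class of collagen chains in each of the 22 libraries, stacked, with values under the floor counted as 0. The R52C bars total 621 to 676 with type VI at 305 to 336 of it, and the Vector bars total 1720 to 1910 with type VI at 21.3 to 39.1.

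Overexpression of NKX3.1 was compared with the empty vector first. The type VI chains COL6A1 and COL6A2 rose about as much as each other, COL26A1 and COL9A2 rose with them, and COL4A2, COL4A5, COL4A6, COL5A1, COL7A1, COL12A1, COL16A1 and COL27A1 fell by less. With limma's moderated test and Benjamini-Hochberg adjustment over all 21325 genes tested, 15 of the 36 members passed an adjusted p of 0.05, against 41% of all genes tested. Higher were 7 members, against 21.6% of all genes, and lower were 8, against 19.4%. That share, 41.7% of the members, is near the background. The libraries of 14 members did not overlap between the groups, against 23.9% of all genes. The median change of the members was -0.16 on the log2 scale and that of all genes -0.01. Called and at least 2-fold higher were 6 members, and none was 2-fold lower, against 5.37% of all genes in both directions together. Of these 6, COL3A1 was under the floor throughout and COL24A1 was above it in 1 library alone.

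COL6A1 encodes the alpha1 chain of type VI collagen. Its level was 8.26, 8.74 and 9.06 (lowest, median and highest of 6) in Vector and 10.22, 10.28 and 10.62 in NKX3.1. All NKX3.1 libraries lay above all Vector libraries. The change was 1.64 (SE 0.08) on the log2 scale, 3.12-fold, with an adjusted p of 2.35e-14 in limma. COL6A2, the alpha2 chain, was 7.25, 7.81 and 8.03 in Vector and 9.09, 9.19 and 9.50 in NKX3.1, again with no overlap. It rose by 1.52 (SE 0.09), 2.88-fold, with a limma adjusted p of 4.19e-13. COL6A3, the alpha3 chain of the same trimer, was under the floor in all libraries of both groups, between -1.24 and 2.35. COL6A6, an alternative to the alpha3 chain and near the floor, was 3.20 to 4.37 in NKX3.1 and 2.69 to 4.48 in Vector, and did not pass (limma adjusted p 0.97). COL26A1, a collagen with emilin-like domains, rose by 1.45 (SE 0.15; limma adjusted p 2.01e-08), from 3.80 to 4.97 in Vector to 5.47 to 6.27 in NKX3.1. COL9A2, a chain of the fibril-associated type IX, rose by 1.04 (SE 0.15; limma adjusted p 1.85e-06), from 3.56 to 4.49 to 4.68 to 5.31. In both genes the groups did not overlap.

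**Figure D3:**
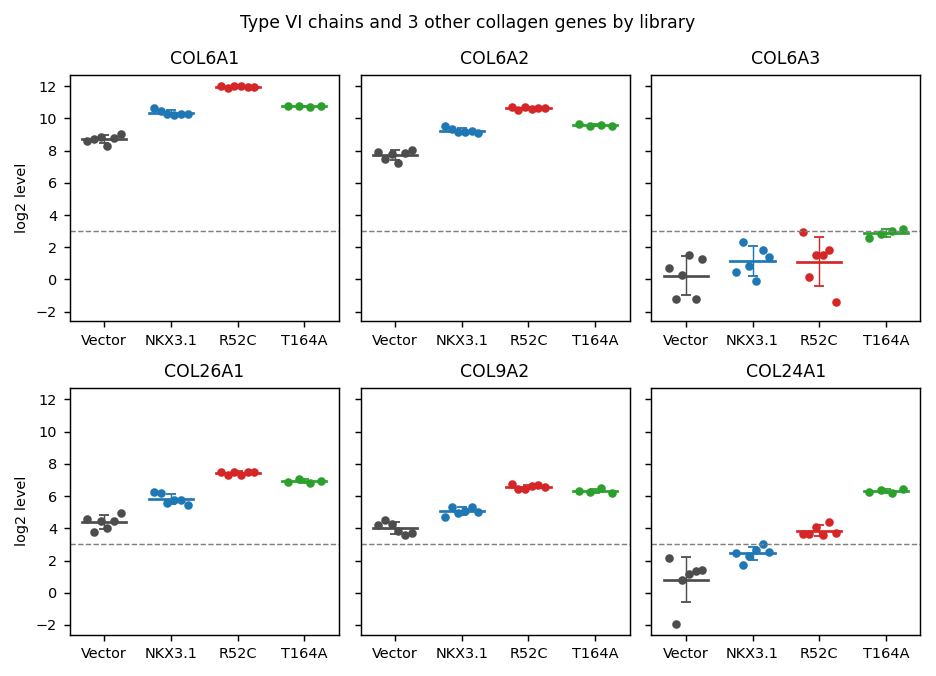
Log2 level in each library (points) with the mean and SD of each group (bars), for 3 type VI chains and COL26A1, COL9A2 and COL24A1; the dashed line is the floor of 3. COL6A1, COL6A2, COL26A1 and COL9A2 were on average lowest in Vector and highest in R52C, though R52C and T164A overlapped for COL9A2 (limma adjusted p 0.146), and COL6A3 was under the floor in all but 2 libraries, both T164A and at most 3.15.

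Of the 6 type IV chains 3 fell in NKX3.1 and none rose. COL4A2 was 9.54, 9.85 and 10.28 in Vector and 9.07, 9.15 and 9.26 in NKX3.1. No library of either group overlapped, and the level fell by 0.73 (SE 0.13; limma adjusted p 5.21e-05). COL4A6, found mostly in epithelial basement membranes, was 9.72, 10.07 and 10.44 in Vector and 9.40, 9.45 and 9.46 in NKX3.1, and fell by 0.63 (SE 0.12; limma adjusted p 0.000142). COL4A5 fell by 0.31 (SE 0.06; limma adjusted p 9.45e-05) from a median of 12.44 to one of 12.14, without overlap. COL4A1, the obligate partner of COL4A2, was 9.10, 9.44 and 9.81 in Vector and 8.72, 8.78 and 8.90 in NKX3.1. Its libraries did not overlap either, but its change of -0.65 (SE 0.31) did not pass, with a limma adjusted p of 0.0941. Fitted on these 2 groups alone, without the R52C libraries in which it was under the floor with an SD of 1.14, COL4A1 had an adjusted p of 1.81e-05. COL4A3 and COL4A4 were low, at 4.22 against 4.51 and 5.03 against 5.16 on average, and did not pass (limma adjusted p 0.202 and 0.568).

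Vector replicates 1 to 3 and 4 to 6, numbered in the order of deposit, stood apart for many members, not for type IV alone. The 2 sets did not overlap for COL8A1 (averages 7.75 and 8.66), COL18A1 (8.70 and 9.41) or, in the opposite direction, COL1A1 (10.86 and 10.47) and COL9A2 (4.32 and 3.70). The tests took all 6 Vector libraries as a single group. Of the type IV chains, only COL4A4 had sets that overlapped. The size of the COL4A1, COL4A2, COL4A5 and COL4A6 changes moved with the set used. COL4A2 averaged 9.56 in Vector replicates 1 to 3 and 10.21 in 4 to 6. Set against replicates 1 to 3 alone the COL4A2 change was -0.40 (limma adjusted p 0.00796), and against 4 to 6 alone -1.05 (1.63e-07). For COL4A6 these values were -0.33 (0.0218) and -0.94 (3.96e-07), and for COL4A5 -0.12 (0.00116) and -0.49 (1.32e-11). For COL4A1 they were -0.38 (0.472) and -0.93 (0.062). COL6A1 gave 1.62 and 1.66, and COL6A2 1.52 and 1.53. COL9A2 averaged 5.06 in NKX3.1, so the size of its rise also depended on the set.

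**Figure D4:**
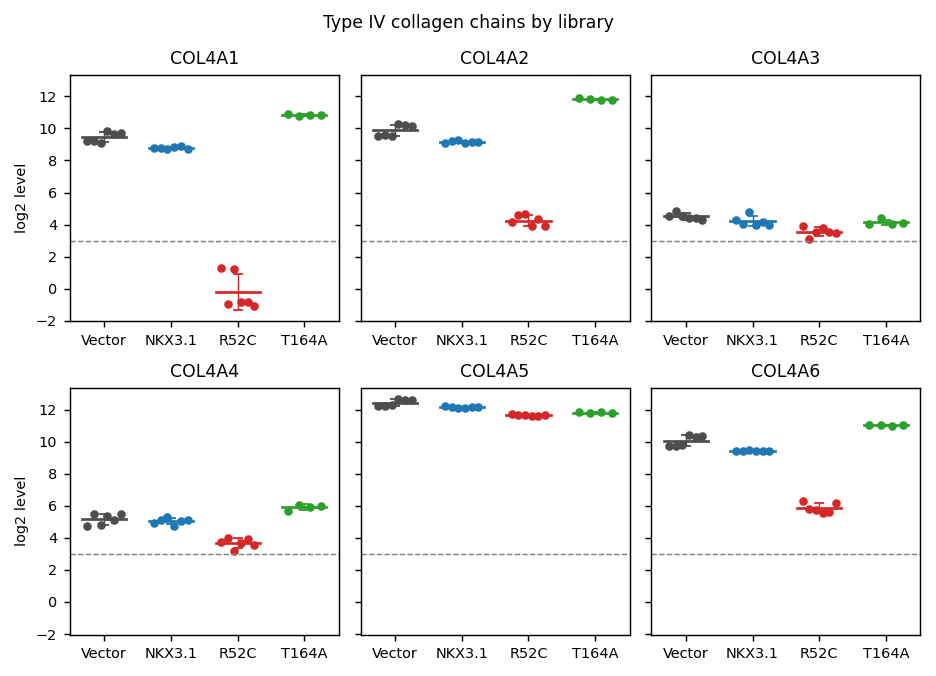
Log2 level of the 6 type IV chains in each library (points) with the mean and SD of each group (bars); the dashed line is the floor of 3. COL4A1 lay under the floor in R52C at -1.10 to 1.27, COL4A5 stayed between 11.60 and 12.66 in all groups, and T164A was highest for COL4A1, COL4A2 and COL4A6.

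Of 9 fibrillar and 8 fibril-associated chains tested, 2 of each fell, by less than 0.5, as did COL7A1. COL7A1, the only chain of type VII, was 13.87, 13.98 and 14.10 in Vector and 13.53, 13.57 and 13.63 in NKX3.1. It fell by 0.42 (SE 0.04; limma adjusted p 1.18e-08) without overlap, and by 0.40 and 0.43 against Vector replicates 1 to 3 and 4 to 6. COL5A1, the main type V chain, fell by 0.46 (SE 0.07; limma adjusted p 1.55e-05) from 11.24 to 10.78. The fibril-associated COL12A1 and COL16A1 fell by 0.34 and 0.28, and the fibrillar COL27A1 by 0.30, all without overlap. Against Vector replicates 4 to 6 alone, COL16A1 and COL27A1 did not pass (adjusted p 0.0581 and 0.112). COL1A1, the alpha1 chain of type I, averaged 10.56 against 10.67 and did not pass (limma adjusted p 0.301). It passed against Vector replicates 1 to 3 (-0.30, 0.000389), with array weights (-0.18, 0.0384) and with libraries shifted to a common median (-0.19, 0.0487), and was 0.090 against replicates 4 to 6 (0.321). COL5A2 (7.55 against 7.74) and COL18A1, the source of endostatin (8.86 against 9.05), did not pass either. COL5A2 passed without Vector replicate 1 (-0.23, limma adjusted p 0.0493) or without NKX3.1 replicate 5 (-0.24, 0.0404). COL18A1 passed without Vector replicate 1 (-0.26, 0.0493) or 2 (-0.27, 0.0392). COL18A1 was -0.55 against Vector replicates 4 to 6 and 0.16 against 1 to 3, so its direction depended on the Vector libraries used.

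The remaining called members in this comparison were near or under the floor. COL23A1, a transmembrane collagen, was 4.34 to 4.86 in NKX3.1 and 2.85 to 4.45 in Vector, with overlap (limma adjusted p 0.0202). It did not pass without Vector replicate 4 (0.0548) or 5 (0.0651), against replicates 1 to 3 (0.343) or with array weights (0.0576). COL24A1 and COL3A1 were called higher, but COL3A1 was under the floor in all 12 libraries and COL24A1 in 11 of them, so no fold is given. COL8A1, a short-chain network collagen, was 7.27 to 7.61 against 7.67 to 8.73 and did not pass (limma adjusted p 0.116), though it did with these 2 groups fitted alone (0.000815) or against Vector replicates 4 to 6 (0.0371).

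**Figure D5:**
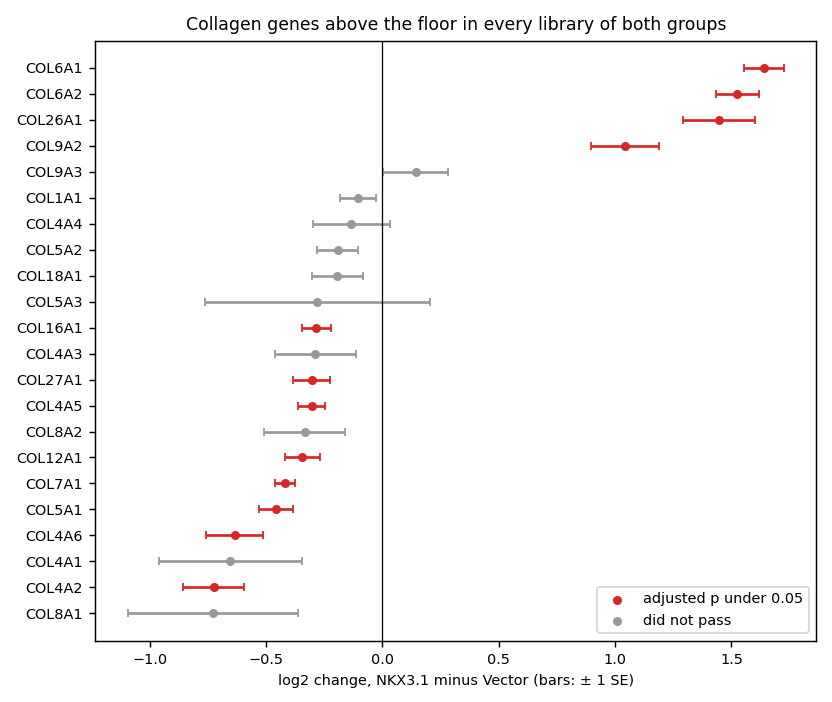
Log2 change between NKX3.1 and Vector, with its SE, for the 22 members above the floor in every library of both groups; red points passed an adjusted p of 0.05. COL6A1, COL6A2, COL26A1 and COL9A2 lie between 1.04 and 1.64, and the 8 members that fell lie between -0.73 and -0.28.

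Markers of both epithelial types moved in this comparison too. All 12 luminal markers rose, with a summed level of 16 to 16.27 in NKX3.1 against 13.56 to 14.62 in Vector and a median change of 1.97. Of 12 basal markers 5 fell and none rose, with a summed level of 17.69 to 17.85 against 18.03 to 18.27. The fibroblast markers DCN, LUM, PDGFRA, THY1, TCF21 and POSTN, 6 of 10, averaged under the floor in both groups, with sums of 9.75 to 9.96 and 9.96 to 10.45. Sums were taken on the linear scale, so the highest gene of a list weighs most. For the fibroblast list that gene was FBLN2, at 9.68 in NKX3.1 and 10.08 in Vector on average. Of 7 fibroblast markers tested 1 rose and 1 fell. No smooth muscle or immune marker tested was called, with 3 tested in each list, and 2 of 3 endothelial markers rose while CDH5, KDR and TEK stayed under the floor. The part of these markers in the collagen changes was not tested. Whether the collagen differences come with the overexpressed NKX3.1 or with another difference between these cells cannot be told apart.

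In the libraries labelled R52C more collagens were lower than higher against Vector, while COL6A1 and COL6A2 were higher. Of 36 members 20 fell and 10 rose, 83.3% in all, against 83.8% of all genes tested. This is the background rate, since these libraries differed from Vector in most genes. Libraries did not overlap for 27 members, against 70.8%. The median member change was -0.94, that of all genes 0.01. By direction, 41.6% of all genes were called lower and 42.2% higher.

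All 6 type IV chains fell. COL4A1 was under the floor in all 6 R52C libraries, between -1.10 and 1.27, and was at least 87.0-fold lower than in Vector (limma adjusted p 8.82e-21), with each library under the floor raised to 3. COL4A2 was 3.89, 4.24 and 4.64 in R52C, and fell by 5.63 (SE 0.13; limma adjusted p 6.37e-24). COL4A6 was 5.52, 5.76 and 6.32 and fell by 4.22 (SE 0.12; limma adjusted p 1.23e-21). Its neighbour COL4A5 was 11.60, 11.65 and 11.70 and fell by 0.79 (SE 0.06; limma adjusted p 7.42e-13). So of the 2 genes whose starts lie 380 bases apart, one differed 18.6-fold and the other 1.73-fold. COL4A3 and COL4A4 fell by 0.94 and 1.48.

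COL7A1 was 9.36, 9.44 and 9.66 in R52C, and fell by 4.51 (SE 0.04; limma adjusted p 5.03e-32). Among fibrillar chains, COL27A1 fell by 6.14, COL5A1 by 5.21, COL5A2 by 2.66 and COL1A1 by 2.62, none with overlap. COL5A3, the third type V chain, was under the floor in every R52C library and at least 57.2-fold lower. COL8A1, also under the floor in every one, was at least 37.0-fold lower. The fibril-associated COL16A1 and COL12A1 fell by 4.37 and 3.94.

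COL6A1 and COL6A2 went the other way. COL6A1 was 11.89, 11.95 and 12.02 in R52C and 3.25 (SE 0.08) above Vector, 9.52-fold, with a limma adjusted p of 8.78e-23. COL6A2 was 10.54, 10.65 and 10.70 and rose by 2.92 (SE 0.09; limma adjusted p 5.51e-21). COL6A3 was under the floor, with a highest value of 2.92. COL6A6, at 2.02 to 3.46, fell by 0.97 with overlap (limma adjusted p 0.00439), and did not pass against Vector replicates 4 to 6 (0.185), with R52C replicates 1 to 3 (0.0769) or after quantile normalization (0.144). COL26A1 rose by 3.05 and COL9A2 by 2.56, to averages of 7.44 and 6.57. COL28A1, a collagen with von Willebrand domains, was 3.73 to 4.35 in R52C and under the floor in all Vector libraries. COL24A1 was 3.56 to 4.41 in R52C and likewise under it in Vector. COL28A1 rose by at least 2.06-fold, but passed the detection filter through R52C alone, so it had to differ. COL24A1 rose by at least 0.85 on the log2 scale, and COL23A1 by at least 1.77-fold. COL9A3 rose by 0.59. COL3A1 was called higher too, but lay under the floor in all 12 libraries, so no fold is given. COL18A1 did not pass, at 8.93 against 9.05 (limma adjusted p 0.281), and its change was 0.23 against Vector replicates 1 to 3 and -0.48 against 4 to 6.

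Epithelial markers differed in the same libraries. All 12 basal markers fell, with a summed level of 10.85 to 11.16 against 18.03 to 18.27 in Vector. COL17A1, the hemidesmosomal collagen of basal cells, was 2.10 to 4.21 against 13.76 to 14.18. All 12 luminal markers rose, to a summed 17.91 to 17.93. Of 10 fibroblast markers 7 were under the floor on average in R52C, and the sum was 8.39 to 8.56 against 9.96 to 10.45. Endothelial markers summed to 7.99 to 8.24 against 4.38 to 5.68, with CDH5, KDR and TEK under the floor. Smooth muscle markers summed to 9.2 to 9.26 against 8.70 to 9.03, with DES, ACTG2, CNN1 and LMOD1 under it on average, and immune markers to 6.93 to 7.06 against 9.15 to 9.40. The fibroblast and endothelial sums mostly followed 1 gene each, FBLN2 (8.21 against 10.08 on average) and VWF (8.03 against 4.57). So did the smooth muscle and immune sums, with SMTN (9.13 against 8.40) and CD68 (6.88 against 9.04). The part of these markers was not tested. Whether the collagen differences come with the labelled NKX3.1 form or with another difference between these cells cannot be told apart.

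The libraries labelled T164A expressed collagens that were at or under the floor in the other groups. Of 36 members 21 were higher than Vector and 10 lower, 86.1% in all, against 82.2% of all genes tested. Libraries did not overlap for 29 members, against 71.1%. The median change of the members was 1.36 and of all genes -0.04, and 40.6% of all genes were called higher and 41.6% lower. However, 7 members (COL3A1, COL11A1, COL13A1, COL14A1, COL19A1, COL21A1 and COL25A1) passed the detection filter through T164A alone, so they had to differ. All 7 are among the members called higher, and they raise the median of 1.36, so these counts and this median are partly set by the filter.

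COL2A1, the chain of cartilage type II collagen, was 9.58, 9.57, 9.61 and 9.50 in the 4 T164A libraries and 1.43 to 3.50 in Vector. It was at least 81.0-fold higher, with Vector libraries under the floor raised to 3 (limma adjusted p 1.17e-09). COL25A1, a transmembrane collagen known from neurons, was 8.63, 8.52, 8.61 and 8.86, and under the floor in all 18 libraries of the other groups, at least 50.4-fold higher than Vector. COL13A1, another transmembrane chain, was 7.43, 7.19, 7.11 and 7.13, at least 18.6-fold higher. COL3A1, a fibrillar chain typical of fibroblasts, was 6.74, 6.87, 6.51 and 6.59, and at least 12.8-fold higher. These 4 genes had no overlap with any other group. For COL25A1, COL13A1 and COL3A1 this lends no support, since they passed the detection filter through T164A alone. COL14A1 was at least 11.7-fold, COL24A1 9.88-fold, COL21A1 6.43-fold, COL11A1 6.31-fold and COL19A1 2.82-fold higher, each as a lower bound. All of these but COL24A1 also passed the filter through T164A alone.

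Among the type IV chains, COL4A1, COL4A2, COL4A4 and COL4A6 rose and COL4A5 fell. COL4A2 was 11.87, 11.81, 11.77 and 11.79 in T164A and rose by 1.93 (SE 0.14; limma adjusted p 2.49e-12). COL4A1 was 10.92, 10.80, 10.83 and 10.81 and rose by 1.40 (SE 0.34; limma adjusted p 0.000619). COL4A6 rose by 0.95 and COL4A4 by 0.76, and COL4A5 decreased by 0.63 (SE 0.06; limma adjusted p 1.18e-09) to 11.80 to 11.84. COL4A3 did not pass, at 4.15 against 4.51 (limma adjusted p 0.0942). Against Vector replicates 1 to 3 the changes were 2.25 for COL4A2 and 1.26 for COL4A6, and against 4 to 6 they were 1.60 and 0.64.

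COL18A1 was 10.92, 10.82, 10.82 and 10.76 and rose by 1.78 (SE 0.12; limma adjusted p 3.19e-13). COL6A1 was 10.74, 10.77, 10.70 and 10.74 and rose by 2.03 (SE 0.09; limma adjusted p 7.51e-17), and COL6A2 rose by 1.88. COL6A3 was 2.59, 2.82, 3.03 and 3.15, above the floor in 2 of 4 libraries. COL6A6 was 3.22 to 3.64 and did not pass (limma adjusted p 0.366), though it did against Vector replicates 1 to 3 (-0.80, 0.0358). COL26A1, COL9A2 and COL9A3 rose by 2.56, 2.30 and 1.43. COL23A1 was 5.82 to 6.25 and at least 4.14-fold higher.

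The members that fell in T164A were led by COL5A3, at 3.35, 3.89, 1.77 and 3.40 against 8.66 to 9.04 in Vector, at least 43.1-fold lower. COL16A1 fell by 1.66, COL1A1 by 1.47, COL5A1 by 1.24, COL12A1 by 0.87 and COL8A2 by 0.87, none with overlap. COL7A1 was 13.60, 13.47, 13.52 and 13.42 and fell by 0.49 (SE 0.05; limma adjusted p 4.95e-10). COL8A1 fell by 1.16 (limma adjusted p 0.0114), but by 0.70 against Vector replicates 1 to 3, which did not pass (0.179). COL27A1 fell by 0.19 with overlap (limma adjusted p 0.0488), and did not pass without any 1 of Vector replicates 1 to 3 or T164A replicates 2 to 4 (0.0786 to 0.111). COL5A2 rose by 0.26 with overlap, and did not pass with libraries shifted to a common median (0.432).

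Marker values of other cells stood beside these. Of 10 fibroblast markers 7 were tested, 4 rose and 2 fell. LUM was 4.74 to 5.36 and PDGFRA 4.62 to 4.82 in T164A, both under the floor in Vector, while DCN, THY1, TCF21, POSTN, OGN and ASPN averaged under the floor in T164A. The summed fibroblast level was 10.53 to 10.73, against 9.96 to 10.45. Of 12 luminal markers 11 fell, to a sum of 10.44 to 10.51, and of 12 basal markers 8 fell and 2 rose, to a sum of 17.02 to 17.13. Of the other lists, smooth muscle summed to 9.80 to 9.91 against 8.70 to 9.03 with DES, ACTG2 and CNN1 under the floor, and immune markers to 8.44 to 8.64 against 9.15 to 9.40. Endothelial markers summed to 4.86 to 5.02 against 4.38 to 5.68. Among them VWF averaged 1.72 against 4.57, KDR 3.88 against 0.46 and CLDN5 3.22 against 2.35. The fibroblast, smooth muscle and immune sums mostly followed FBLN2 (10.51 against 10.08 on average), SMTN (9.48 against 8.40) and CD68 (8.38 against 9.04). The part of these markers in the collagen values was not tested. The T164A libraries were numbered apart from the other groups in the deposit, and their processing notes differ in the builds listed. Whether the collagen differences come with the labelled NKX3.1 form or with another difference between these libraries cannot be told apart.

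The groups labelled with forms of NKX3.1 were also compared with each other, in the same fit and partly on the same libraries. Here too, the labelled form and other differences between the R52C or T164A libraries and the rest cannot be told apart. Between NKX3.1 and R52C, 21 members were higher in NKX3.1 and 7 lower, 77.8%, against 80.1% of all genes (39.2% higher and 40.9% lower), and 25 did not overlap, against 68.6%. With libraries shifted to a common median the counts were 20 and 11, and with quantile normalization 16 and 11. COL4A1 was at least 55.3-fold higher in NKX3.1, COL5A3 at least 47.1-fold and COL8A1 at least 22.3-fold. COL27A1 was 57.2-fold, COL4A2 30.0-fold, COL5A1 26.9-fold, COL7A1 17.1-fold and COL16A1 16.9-fold higher. COL4A6 was 12.0-fold, COL1A1 5.73-fold, COL5A2 5.54-fold, COL4A4 2.54-fold and COL4A3 1.57-fold higher. COL4A3 did not pass after quantile normalization (0.10, limma adjusted p 0.596). Lower in NKX3.1 were COL6A1 (3.05-fold), COL26A1 (3.04-fold), COL9A2 (2.85-fold), COL6A2 (2.64-fold) and COL9A3 (1.36-fold), and as bounds COL28A1, which passed the detection filter through R52C alone, and COL24A1. COL6A6 was at least 1.51-fold higher with overlap (limma adjusted p 0.00545), and did not pass against R52C replicates 1 to 3 (0.0894) or after quantile normalization (0.324). COL3A1 was under the floor in all 12 libraries and did not pass (0.0853). It passed with array weights (0.0472), with these 2 groups fitted alone (0.0428), with libraries shifted to a common median (0.0283) and after quantile normalization (5.61e-05). COL4A5 differed by 0.49 (SE 0.06; limma adjusted p 1.55e-08). COL18A1 averaged 8.86 and 8.93 and did not pass (limma adjusted p 0.57), but did with libraries shifted to a common median (-0.29, 0.0149).

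Between NKX3.1 and T164A, 8 members were higher in NKX3.1 and 21 lower, 80.6%, against 81.9% of all genes (42.3% higher and 39.6% lower), and 30 did not overlap, against 74.4%. These counts hold the 7 members that passed the detection filter through T164A alone. The 9 members furthest below T164A in the fit, COL2A1 (at least 85.7-fold), COL25A1, COL11A1, COL3A1 (at least 12.8-fold), COL13A1, COL14A1, COL19A1, COL24A1 and COL21A1, all averaged under the floor in NKX3.1. COL4A2, COL4A1, COL18A1 and COL4A6 were 6.28-fold, 4.14-fold, 3.92-fold and 2.99-fold lower in NKX3.1, and COL4A4 and COL5A2 1.86-fold and 1.37-fold lower. Higher were COL5A3 (at least 35.5-fold), COL16A1 (2.59-fold), COL1A1 (2.58-fold), COL5A1 (1.72-fold) and COL4A5 (1.25-fold). COL6A1 and COL6A2 were 1.31-fold and 1.28-fold lower (limma adjusted p 0.00055 and 0.00239). COL7A1, at 13.58 and 13.50, and COL4A3, at 4.22 and 4.15, did not pass (limma adjusted p 0.157 and 0.753), nor did COL6A6 (0.395).

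Between R52C and T164A, 5 members were higher in R52C and 29 lower, 94.4%, against 83.8% of all genes (38.5% higher and 45.2% lower). Libraries of 32 members did not overlap, against 78.1%. These counts hold the 7 members that passed the detection filter through T164A alone and COL28A1, which passed through R52C alone, so all 8 had to differ. The 6 type IV chains were lower in R52C, and so were the 9 fibrillar chains tested, of which COL3A1 and COL11A1 had to be. COL4A1 was lower by at least 229-fold, COL4A2 by 189-fold, COL27A1 by 61.8-fold, COL4A6 by 35.9-fold and COL5A1 by 15.7-fold. COL7A1 was 16.2-fold, COL18A1 3.74-fold and COL1A1 2.22-fold lower, and COL2A1, COL25A1, COL8A1 and COL3A1 at least 94.5-fold, 50.4-fold, 16.6-fold and 12.8-fold. COL6A1 and COL6A2 were 2.34-fold and 2.06-fold higher in R52C, and so were COL26A1 (1.41-fold), COL28A1 (at least 2.06-fold) and COL10A1 (at least 1.32-fold). COL9A2 did not pass (limma adjusted p 0.146), but did with libraries shifted to a common median (0.57, 0.00288), and COL6A6 did not pass (0.0782). COL4A5 differed by -0.17 (SE 0.06; limma adjusted p 0.0188), and by 0.14 in the opposite direction with libraries shifted to a common median (0.0343).

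Thus COL6A1 averaged 8.71 for Vector, 10.35 for NKX3.1, 10.74 for T164A and 11.96 for R52C, and each neighbouring pair in this order passed the test without overlap. COL6A2 had the same order, at 7.71, 9.24, 9.59 and 10.64. COL4A5 averaged 12.44 in Vector, 12.14 in NKX3.1, 11.82 in T164A and 11.65 in R52C, the reverse order, in which the last 2 changed places with libraries shifted to a common median. For COL26A1 the averages were 4.38, 5.83, 6.94 and 7.44 in Vector, NKX3.1, T164A and R52C.

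Chains that share a trimer did not all move together. The level of COL4A1 per kilobase was 0.47 ± 0.08 (SD, n = 6) log2 units below that of COL4A2 in Vector, 0.39 ± 0.12 for NKX3.1 and 0.99 ± 0.03 (n = 4) in T164A. In R52C COL4A2 was detected in all libraries and COL4A1 in none. COL4A5 exceeded COL4A6 per kilobase by 2.43 ± 0.14 for Vector, 2.76 ± 0.07 for NKX3.1, 5.86 ± 0.29 for R52C and 0.86 ± 0.05 for T164A. COL5A1 exceeded COL5A2 per kilobase by 3.24 ± 0.10, 2.97 ± 0.10, 0.69 ± 0.17 and 1.74 ± 0.09 in Vector, NKX3.1, R52C and T164A. In contrast, COL6A1 exceeded COL6A2 per kilobase by 0.71 ± 0.19, 0.82 ± 0.03, 1.03 ± 0.04 and 0.85 ± 0.08. These differences are descriptions, with no test.

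Several expressed chains had a partner near or under the floor. COL1A1 was 7.90 to 10.91 over the 22 libraries, while COL1A2, which completes the common type I trimer, was under the floor in all, with a highest value of 2.41. COL6A1 and COL6A2 were expressed with COL6A3 above the floor in 2 libraries alone, and COL6A6 stayed between 2.02 and 4.48. COL9A2 and COL9A3 were expressed with COL9A1 under the floor in all libraries. Also not tested were COL6A5, COL15A1 and COL22A1, the last above the floor in 1 library. COL10A1 stayed between 1.68 and 3.80 and COL20A1 between -1.48 and 3.53. COL11A2 had 1 of its 7 entries above the floor, at 3.85 to 6.32. With entries that share a symbol kept, that entry was lower in R52C than in Vector by 1.47 (limma adjusted p 4.17e-08), and changed by 0.27 in NKX3.1 (0.255) and 0.03 in T164A (0.889), neither of which passed.

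Genes that modify, secrete, process and bind collagen were examined by list. Of 19 genes of chain modification and folding, 9 rose and 6 fell in NKX3.1, 9 rose and 8 fell in R52C, and 13 rose and 1 fell in T164A, against Vector, with median changes of 0.12, -0.02 and 0.56. P4HA1, a catalytic subunit of prolyl 4-hydroxylase, rose by 0.98 in NKX3.1 and 2.31 in R52C. PPIB, a prolyl isomerase of the same compartment, rose by 0.77 and 1.93. SERPINH1, the collagen chaperone HSP47, averaged 9.46 in Vector and 8.92 with NKX3.1, against 2.85 in R52C and 10.75 in T164A. Of 9 secretion genes, 4 rose and none fell in NKX3.1, 7 rose and 2 fell in R52C, and 7 rose and 1 fell in T164A, with medians of 0.05, 0.36 and 0.78. MIA3, the cargo receptor TANGO1, averaged 11.07 in Vector, and rose to 11.85 with NKX3.1 and 13.07 in R52C.

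Of 14 genes of processing and cross-linking, 4 fell and none rose in NKX3.1, 11 fell and 1 rose in R52C, and 10 rose and 2 fell in T164A, with medians of -0.23, -1.06 and 1.69. BMP1, the procollagen C-proteinase, fell by 0.36, 2.96 and 1.04 in the 3 groups. LOX, a cross-linking oxidase, fell by 0.46 in NKX3.1 and 1.69 in R52C, but averaged 8.81 in T164A against 7.39 in Vector. Of 15 other basement membrane genes, 8 fell and 1 rose in NKX3.1, 13 fell and 1 rose in R52C, and 13 rose and 2 fell in T164A, with medians of -0.31, -2.53 and 1.31. LAMA5, a laminin chain, fell by 0.26 in NKX3.1 and 3.39 in R52C, and NID1, which links laminin to type IV collagen, averaged 11.24 in Vector and 3.12 in R52C. LAMB2 rose by 1.25 in NKX3.1. LAMA1 and NID2 rose by 3.74 and 4.99 in T164A.

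Of 9 collagen receptors, 1 rose and 2 fell in NKX3.1, 2 rose and 5 fell in R52C, and 2 rose and 3 fell in T164A, with medians of -0.03, -0.59 and 0.08. DDR2, a receptor kinase for fibrillar collagen, averaged 9.48 in T164A and 3.23 in Vector. Its Vector libraries were 2.63 to 4.13, in part under the floor, so no change is given. MRC2, an endocytic receptor, averaged 11.42 in Vector and 2.31 in R52C. Of 13 collagen-degrading proteases, 3 rose and 1 fell in NKX3.1, 3 rose and 7 fell in R52C, and 5 rose and 8 fell in T164A, with medians of 0.00071, -0.78 and -0.45. MMP14, a membrane collagenase, averaged 12.90 in Vector and 3.34 in R52C, while MMP16 rose from 7.35 in Vector to 9.15 with NKX3.1 and 10.98 in R52C. Over all genes tested, 41%, 83.8% and 82.2% were called in these 3 comparisons, with medians of -0.01, 0.01 and -0.04.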

How the data were processed

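Poly-A RNA was prepared with the Illumina TruSeq kit and sequenced on a HiSeq2000, per the labels' protocols. CASAVA 1.8.2 was used, with TopHat, Cufflinks and DESeq in unstated versions and roles, per the submitters' processing notes, which list GRCh37 and mm9 as builds, for T164A mm9 alone. The deposited values are log2 levels, normalized by the authors in a way not given in the sources used here. Samples were grouped by the labelled genotype. The level of the overexpressed gene is not reported here.

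The 3473 entries without a name and the 4178 that share a symbol were left out, and the 21325 genes above the floor of 3 in at least 4 libraries were tested. Entries with a mean under 0 had a 99.9th percentile of 2.81. Group means were fitted together in limma 3.58.1 (R 4.3.3) with an intensity trend, two-sided, with Benjamini-Hochberg adjustment over all genes tested; an adjusted p under 0.05 was called. Bounds raise values under the floor to 3. Levels per kilobase use the longest protein-coding GENCODE transcript. The fits were also run on simulated data in which each gene had the same spread in all groups. That run cannot speak to genes whose spread differs between groups, such as COL4A1. No interval of counting error is given, since depth is unknown.

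Values are given for called members without overlap, up to 8 rises and 8 falls per comparison, and for list genes with the smallest p. They are always given for COL1A1, COL1A2, COL3A1, type IV, COL6A1 to COL6A3, COL7A1, COL5A1, COL5A2 and COL18A1. SERPINH1 in NKX3.1 and T164A, LOX in T164A, COL6A6, and some members near the floor or with overlap, were added after their values were seen. Members and lists were chosen with earlier results of these data known. Alternatives were the filter, the floor, 2 normalizations, the spread model, shared symbols, the groups fitted, library subsets and leaving out each library.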

Additional observations from a re-analysis of the deposited data

Results flagged for a closer look

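In 109 groups of values examined, 1 library stood apart from the rest of its group for 5 members. The measure is the gap to the nearest library divided by the group's range, and chance alone flags about 1 group in 20. COL4A3 in T164A replicate 2 was 4.39 with the nearest library at 4.09 (gap 0.873 of the range). COL5A2 in NKX3.1 replicate 5 was 7.77 with the nearest at 7.56 (0.671). COL8A1 in NKX3.1 replicate 2 was 7.27 with the nearest at 7.48 (0.636). COL8A2 in R52C replicate 4 was 2.72, under the floor, with the nearest at 3.53 (0.643). COL10A1 in R52C replicate 2 was 3.73 with the nearest at 3.40 (0.644). Without NKX3.1 replicate 5, the COL5A2 change against Vector was -0.24 with a limma adjusted p of 0.0404.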

How the results depend on the processing

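Of the changes named for single members and recomputed under each alternative, 3358 values kept their direction and side of the threshold, 36 newly passed, 33 no longer passed and 17 changed direction. Members lower in NKX3.1 than in R52C numbered 7, and 11 both with libraries shifted to one median and with quantile normalization. Members higher in R52C than in T164A numbered 5, and 3 among genes above 5 in at least 4 libraries. Leaving out 1 library gave 6 to 8 higher and 8 to 10 lower members for NKX3.1 against Vector. Against Vector replicates 1 to 3, NKX3.1 gave 0.16 for COL18A1 and 0.016 for COL4A4, and R52C gave 0.23 for COL18A1. Against replicates 4 to 6, NKX3.1 gave 0.090 for COL1A1. COL18A1 in R52C was 0.0068 with libraries at one median and 0.0038 with array weights. COL4A5 between R52C and T164A was 0.14 at one median. COL4A3 between NKX3.1 and T164A was -0.17 after quantile normalization and ranged from -0.044 to 0.15 without 1 library. COL6A6, near the floor, was -0.030 between NKX3.1 and T164A after quantile normalization, and against Vector replicates 4 to 6 it was 0.46 in NKX3.1 and 0.15 in T164A. Without 1 library its NKX3.1 change against Vector ranged from -0.22 to 0.13. The cause was not tested. Library medians differed between groups by -0.13 for R52C and 0.18 for T164A minus Vector, 0.22 for NKX3.1 minus R52C and -0.31 for R52C minus T164A, and shifting to one median takes these amounts off each change.

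No paired analysis was possible because the labels give no replicate numbers, and those used only name libraries in order. Values near the floor carry noise, so changes of members there cannot be sized.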
